A study of Mus musculus with 4 samples.

Results

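Egr1, Egr2 and Egr3, Ier2, Ier3 and Ier5, and Nr4a1, Nr4a2 and Nr4a3 are immediate early genes, and their transcripts were counted in muscle satellite cells (MuSCs) of sham-operated and overloaded mouse muscle. These 9 genes were taken by gene name from the 19353 genes in the count table, and each name matched 1 row. MuSCs were collected from plantaris muscle 4 days after tenotomy, in which the tendons of the gastrocnemius and soleus are cut so that the plantaris carries the load, or after a sham operation with a skin incision alone. There were 2 libraries in the sham group and 2 in the overload group. All mice were Pax7-CreERT2:Rosa-YFP, so that tamoxifen induces yellow fluorescent protein (YFP) in cells in which the Pax7 promoter is active, and in their descendants. Muscles of both groups were digested with collagenase, YFP-positive cells were sorted at 100 cells per tube, and libraries were made by CEL-Seq2, in which the poly(A) end of each captured transcript is tagged with a unique molecular identifier (UMI). The age of the mice, and whether the 2 libraries within each group stem from separate animals, are not given in the sources used here, so p-values measure only the spread between these libraries, which may be technical.

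Immediate early genes are transcribed within minutes of a stimulus, such as a growth factor, stretch or cell stress, from transcription factors already present in the cell, without new protein synthesis. The Egr proteins are zinc finger transcription factors that bind GC-rich sites, and the Nr4a proteins are orphan nuclear receptors whose activity follows mainly from their amount. In MuSCs, transcripts of this class are known to rise during enzymatic dissociation of muscle, so that levels in sorted cells can differ from those in tissue. Digestion was common to both groups, and no library without digestion was analysed here.

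Totals were 269683 and 260488 UMIs in the sham group, and 387955 and 483528 UMIs in the overload group. Each overload tube of 100 cells therefore gave more UMIs, 3880 and 4835 per cell, than either sham tube, with 2697 and 2605 per cell. Counts were scaled to a common library total (CPM) by the TMM method of edgeR, which sets 1 factor per library. Because 1 UMI stands for 1 captured transcript end whatever the transcript's length, levels could be compared between genes without dividing by length. In a bulk tube, fewer cells with a transcript and less of it per cell cannot be told apart.

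The 9 genes together gave 1650 and 1580 UMIs in the sham libraries, or 0.612% (95% Wilson interval 0.583 to 0.642) and 0.607% (0.577 to 0.637) of all UMIs. In the overload libraries they gave 846 and 1101 UMIs, or 0.218% (0.204 to 0.233) and 0.228% (0.215 to 0.242). Only counting error enters these intervals. The share in both sham libraries lay above that in both overload libraries, and the libraries of a group differed little. The summed normalized level was 7170 ± 17.5 CPM in the sham group and 2215 ± 21.1 CPM in the overload group (SD, n = 2 each), a ratio of 3.24. All 9 genes passed the filter on low counts, and all 9 fell after overload at an adjusted p of 0.1 in the quasi-likelihood test of edgeR after Benjamini-Hochberg adjustment over 7228 genes. Of all genes tested, 26.3% fell and 25.8% rose. For all 9 genes the normalized levels of the groups did not overlap, with the overload libraries lower, as for 35.4% of all genes tested. In UMIs per tube, 7 of the 9 genes were lower without overlap, as were 7.9% of all genes. The median log2 fold change, overload over sham, of the 9 genes was -1.58, beside 0.05 for all genes tested.

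**Figure D1:**
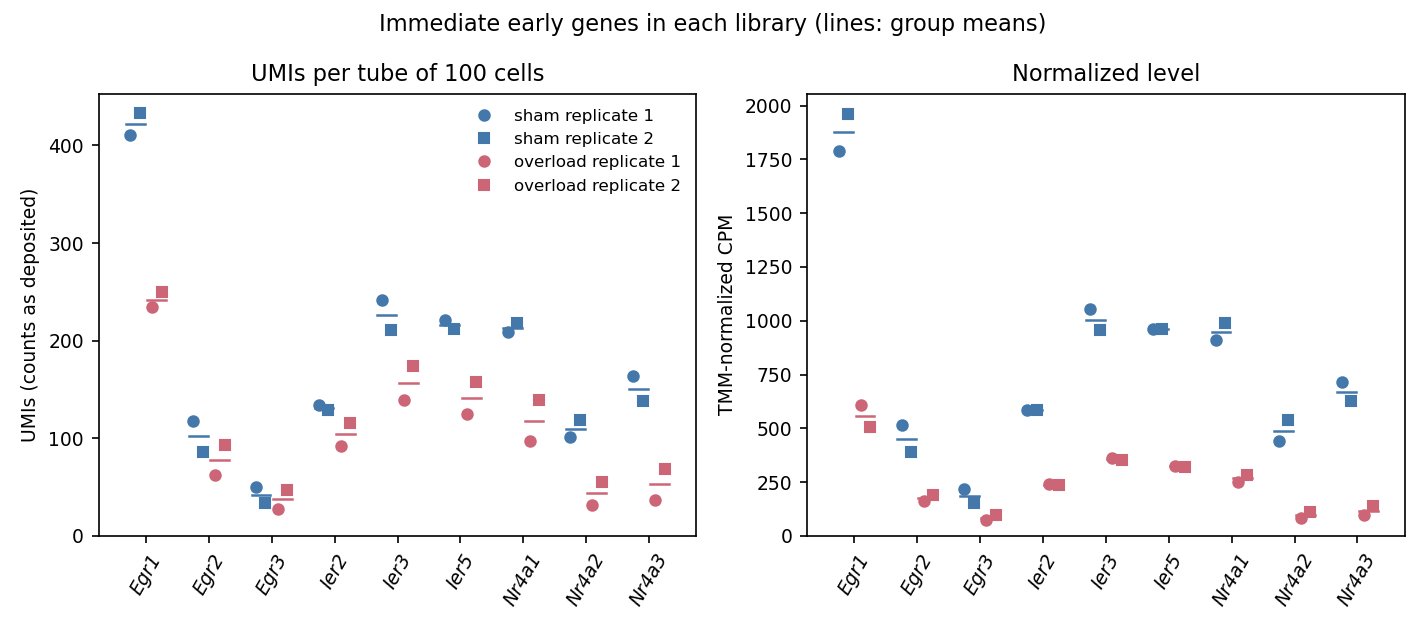
UMIs in each tube of 100 cells (left) and TMM-normalized CPM (right) of the 9 genes, with 1 point per library and a line at each group mean. In CPM both overload points lie below both sham points for every gene, whereas in UMIs per tube the groups overlap for Egr2 and Egr3.

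Among the Egr genes, Egr1, which couples mitogen and stress signals to transcription, gave 411 and 433 UMIs in the sham libraries and 234 and 250 in the overload libraries. It had the 31st highest number of UMIs of all genes in the table. Its level was 1875 ± 122 CPM in the sham group and 557 ± 72.2 CPM in the overload group (SD, n = 2 each). Every sham library exceeded every overload library, both in CPM and in UMIs per tube. The log2 fold change was -1.75 ± 0.16 (SE), with edgeR's quasi-likelihood test giving a Benjamini-Hochberg adjusted p of 5.36e-07.

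Egr2, which is required for myelination by Schwann cells, gave 118 and 86 UMIs in the sham libraries and 62 and 93 in the overload libraries. The UMIs per tube overlapped between the groups, and the normalized levels, 452 ± 87.7 and 175 ± 19.2 CPM (SD, n = 2 each), did not. Egr3, which is required for the formation of muscle spindles, was the least abundant of the 9 genes, with 50 and 34 UMIs in the sham libraries and 28 and 47 in the overload libraries. Its UMIs per tube overlapped as well, and its levels of 186 ± 45.0 and 84.0 ± 15.8 CPM (SD, n = 2 each) again did not. The log2 fold change was -1.36 ± 0.19 for Egr2 and -1.13 ± 0.26 for Egr3 (SE), with adjusted p-values of 2.84e-05 and 0.00197 in the quasi-likelihood test of edgeR after Benjamini-Hochberg adjustment. Egr4, the remaining Egr gene, gave 2, 1, 1 and 1 UMIs in sham replicates 1 and 2 and overload replicates 1 and 2 and was not tested, and the related Wt1 gave 1 UMI, in sham replicate 1.

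Within the Egr family, Egr1 held most of the UMIs in every library. Its share was 71.0% (95% Wilson interval 67.2 to 74.5) and 78.3% (74.7 to 81.5) in the sham libraries, and 72.2% (67.1 to 76.8) and 64.1% (59.2 to 68.7) in the overload libraries. The shares overlapped between the groups, with sham replicate 2 the highest and overload replicate 2 the lowest.

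Ier2, Ier3 and Ier5 share the name immediate early response, and of these Ier2 and Ier5 are related nuclear proteins. Ier3, which acts in cell survival and stress signaling, was the most abundant, with 242 and 211 UMIs in the sham libraries and 139 and 174 in the overload libraries. Its level was 1005 ± 69.0 CPM in the sham group and 357 ± 6.40 CPM in the overload group (SD, n = 2 each). Both sham libraries lay above both overload libraries on either scale. The log2 fold change was -1.49 ± 0.16 (SE), with a Benjamini-Hochberg adjusted p of 1.78e-06 in edgeR's quasi-likelihood test.

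Ier5, a gene linked to the activity of heat shock factor HSF1, gave 221 and 212 UMIs in the sham libraries and 125 and 158 in the overload libraries. Its levels were 961 ± 1.14 and 322 ± 3.57 CPM (SD, n = 2 each). Ier2 gave 134 and 129 UMIs in the sham libraries and 92 and 116 in the overload libraries. For both genes the groups did not overlap on either scale, although the gap in UMIs per tube was small for Ier2. The levels of Ier2 were 584 ± 0.775 and 237 ± 3.04 CPM (SD, n = 2 each). The log2 fold change was -1.58 ± 0.16 for Ier5 and -1.30 ± 0.16 for Ier2 (SE), with adjusted p-values of 1.03e-06 and 1.08e-05 in the quasi-likelihood test of edgeR after Benjamini-Hochberg adjustment. Ier5l, a relative of Ier5, was sparse, with 12, 15, 18 and 15 UMIs in sham replicates 1 and 2 and overload replicates 1 and 2. Its log2 fold change of -0.66 had a 95% interval of -1.50 to 0.17 and a Benjamini-Hochberg adjusted p of 0.188 in edgeR's quasi-likelihood test, so that no change was detectable at this depth.

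The Nr4a genes encode Nur77 (Nr4a1), Nurr1 (Nr4a2) and NOR-1 (Nr4a3), and Nr4a1 and Nr4a3 are known to respond to exercise and adrenergic signals in skeletal muscle. Nr4a1 gave 209 and 218 UMIs in the sham libraries and 97 and 139 in the overload libraries. Nr4a2 gave 101 and 119 UMIs in the sham libraries and 32 and 55 in the overload libraries, and Nr4a3 gave 164 and 138 against 37 and 69. No overload library reached a sham library for any of the 3 genes, with or without scaling. In CPM, Nr4a1 went from 949 ± 55.0 to 267 ± 20.7, Nr4a2 from 489 ± 70.3 to 97.3 ± 19.9, and Nr4a3 from 670 ± 62.7 to 118 ± 30.8 (SD, n = 2 each). These were ratios of sham to overload of fitted levels of 3.54, 4.94 and 5.57. The log2 fold changes were -1.82 ± 0.16, -2.30 ± 0.20 and -2.48 ± 0.20 (SE), with adjusted p-values of 3.95e-07, 3.62e-07 and 1.38e-07 in the quasi-likelihood test of edgeR after Benjamini-Hochberg adjustment. Nr4a3 and Nr4a2 therefore had the largest falls of the 9 genes. Among all 7228 genes tested, 0.844% fell by more than Nr4a3 and 1.13% by more than Nr4a2, beside 11.1% for Egr3, the member with the smallest fall.

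The summed level of the Nr4a genes was 4.37-fold higher in the sham group, beside 3.08-fold for the Egr genes and 2.78-fold for the Ier genes, and the difference between these ratios was not tested. Nr4a1 made up 44.1% (95% Wilson interval 39.7 to 48.6) and 45.9% (41.5 to 50.4) of the UMIs of its family in the sham libraries, and 58.4% (50.8 to 65.7) and 52.9% (46.8 to 58.8) in the overload libraries. Nr4a3 made up 34.6% (30.5 to 39.0) and 29.1% (25.2 to 33.3), against 22.3% (16.6 to 29.2) and 26.2% (21.3 to 31.9). Nr4a2 made up 21.3% (17.9 to 25.2) and 25.1% (21.4 to 29.1), against 19.3% (14.0 to 25.9) and 20.9% (16.4 to 26.2). The groups did not overlap in any of these shares, with Nr4a1 taking a larger part after overload and Nr4a2 and Nr4a3 a smaller one, although the overload intervals of Nr4a2 and Nr4a3 reached into the sham range. With 2 libraries on each side, the smallest p of an exact permutation test is 0.333, so these shares are a description.

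**Figure D2:**
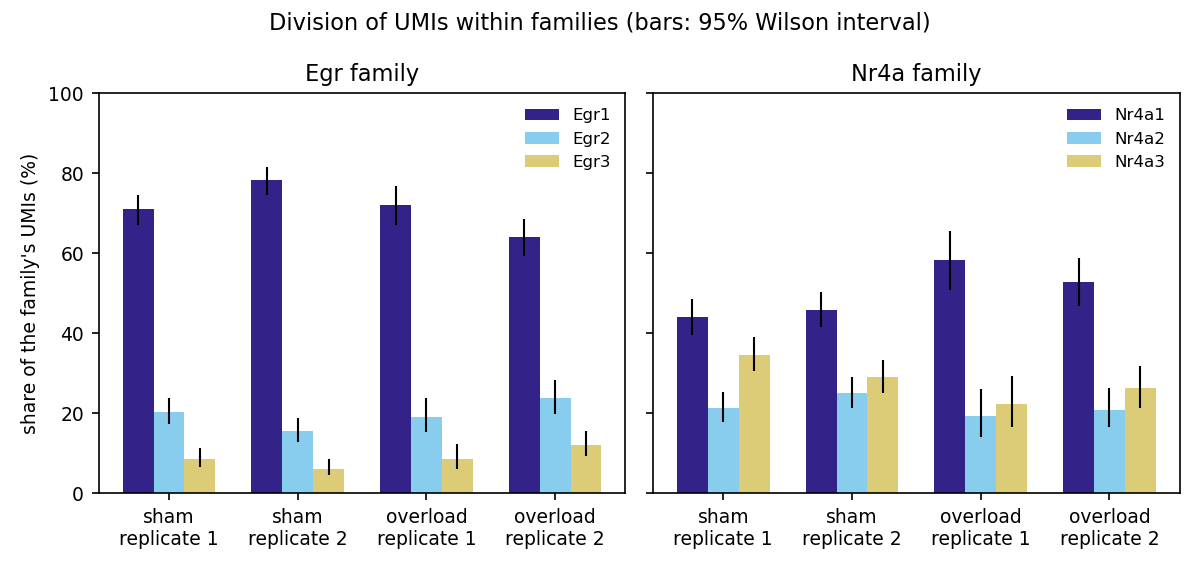
Share of the UMIs of the Egr family (left) and the Nr4a family (right) held by each gene, in percent, in each library, with 95% Wilson intervals. Egr1 held between 64.1% and 78.3% of the Egr UMIs, and Nr4a1 held 44.1% and 45.9% of the Nr4a UMIs in the sham libraries and 58.4% and 52.9% in the overload libraries.

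Because Nr4a2 and Nr4a3 had the largest falls, the DNA before the transcription starts of the Nr4a family is shown, with that of Egr2 for comparison. Sequences are from RefSeq on GRCm38.p6, which held windows used here for 6 of the 9 genes (Egr2, Ier3, Ier5, Nr4a1, Nr4a2 and Nr4a3), from 250 bases before to 50 bases after a start. The stretches below end at the start, or for Nr4a3 at the first exon base in the GENCODE annotation, and are written 5′ to 3′ on the strand of the gene. Capitals mark matches, on either strand, to TGACG (the core of the cAMP response element, which reads CGTCA on the opposite strand), to GCGGGGGCG (an Egr site), or to the CArG box of the serum response element. The Nr4a2 stretch (chr2:57124004-57124253, minus strand) lay outside the annotated gene, and the Nr4a1 stretch (chr15:101266596-101266845, plus strand) and Egr2 stretch (chr10:67537619-67537868, plus strand) lay inside the annotated genes but outside their exons. The Nr4a3 stretch was chr4:48045055-48045152 on the plus strand.
Nr4a1: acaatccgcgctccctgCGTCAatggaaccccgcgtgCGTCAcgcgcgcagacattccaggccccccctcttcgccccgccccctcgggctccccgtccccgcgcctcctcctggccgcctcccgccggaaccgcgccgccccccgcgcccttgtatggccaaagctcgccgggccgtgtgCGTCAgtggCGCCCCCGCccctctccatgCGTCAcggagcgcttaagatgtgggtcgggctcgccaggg
Nr4a2: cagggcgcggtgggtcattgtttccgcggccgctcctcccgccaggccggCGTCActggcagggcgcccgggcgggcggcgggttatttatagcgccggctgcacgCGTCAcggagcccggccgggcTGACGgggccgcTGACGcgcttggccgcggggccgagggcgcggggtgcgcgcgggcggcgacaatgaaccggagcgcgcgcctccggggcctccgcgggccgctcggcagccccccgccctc
Nr4a3: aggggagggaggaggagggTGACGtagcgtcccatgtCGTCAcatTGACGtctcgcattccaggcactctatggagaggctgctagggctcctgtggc
Egr2: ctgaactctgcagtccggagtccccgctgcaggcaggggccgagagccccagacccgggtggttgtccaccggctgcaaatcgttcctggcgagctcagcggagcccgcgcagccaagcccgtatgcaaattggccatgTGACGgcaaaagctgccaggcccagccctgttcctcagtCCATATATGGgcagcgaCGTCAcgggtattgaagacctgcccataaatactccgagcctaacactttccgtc

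The windows of Nr4a1, Nr4a2 and Nr4a3 each held 4 matches to TGACG, of which 3 are in the shorter Nr4a3 stretch printed. At least 1 match was present in 20.8% of the 32851 RefSeq windows, and at least 4 in 0.231%. Of the 5 windows listed for Egr2, the one printed was chosen for its matches and held a CArG box between 2 matches to TGACG. A pair of windows that overlap it held the same matches, the window farthest upstream held no match to any motif searched, and the remaining one held a CArG box and no TGACG. In this table a CArG box was present in 1.63% of all windows. Nr4a1 held 1 match to GCGGGGGCG, which was present in 2.91% of all windows and overlapped no other match. The full cAMP response element TGACGTCA (1.79% of all windows), the Egr site GCGTGGGCG (0.612%) and the Nr4a site AAAGGTCA (1.51%) were not found in the windows of the 6 genes, and those of Ier3 and Ier5 held no match to any motif searched. A match in such letters is a description of the sequence, and no binding was measured.

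Changes of library scale moved these results in size. Without scaling, as UMIs per tube of 100 cells, the median of all genes tested was 1.01 on the log2 scale, since the overload tubes gave more UMIs, and 4.58% of genes fell and 62% rose. On this scale 6 of the 9 genes fell, namely Egr1 (-0.80), Ier3 (-0.53), Ier5 (-0.61), Nr4a1 (-0.85), Nr4a2 (-1.34) and Nr4a3 (-1.51). The values were -0.40 for Egr2, -0.16 for Egr3 and -0.34 for Ier2, with adjusted p-values of 0.191, 0.704 and 0.163 in the quasi-likelihood test of edgeR after Benjamini-Hochberg adjustment. The median of the 9 genes was thus -0.61 per tube. Relative to the median of all genes it was -1.63 with TMM and, with a shift common to all genes, the same per tube.

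**Figure D3:**
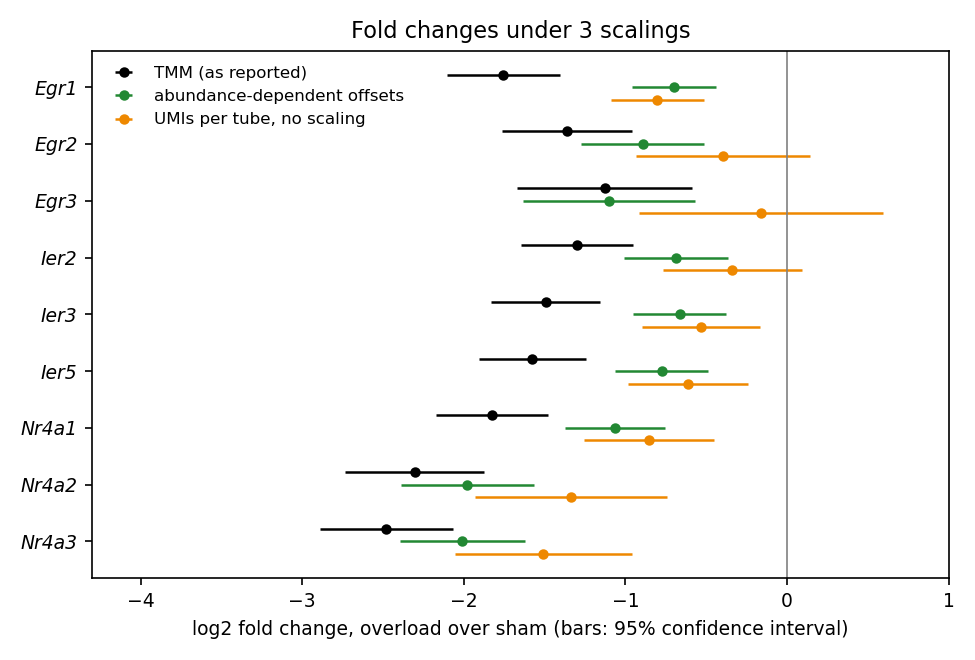
Log2 fold change, overload over sham, of each gene with its 95% confidence interval, under TMM scaling, under offsets that depend on abundance, and in UMIs per tube without scaling. Every estimate is below 0, and the intervals of Egr2, Egr3 and Ier2 include 0 in UMIs per tube.

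Fold changes in these libraries also depended on abundance. In the decile of tested genes with the highest counts, the median log2 fold change was -0.74 and 70.8% of genes fell, whereas in the lowest decile the median was 0.53 and 17.6% fell. Egr1, Ier2, Ier3, Ier5, Nr4a1 and Nr4a3 were in the highest decile, Egr2 and Nr4a2 in the next, and Egr3 in decile 7 of 10. When offsets that depend on abundance were used, all 9 genes still fell, where 21.5% of all genes fell and 21.3% rose. The log2 fold changes were smaller for most. How far these offsets removed the dependence was not measured. Egr1 went to -0.70, Ier3 to -0.66, Ier2 to -0.68, Ier5 to -0.78, Egr2 to -0.89 and Nr4a1 to -1.07. Egr3 (-1.10) hardly moved, and Nr4a2 (-1.98) and Nr4a3 (-2.01) again had the largest falls. The share of the fall of Egr1 and the Ier genes that comes with their abundance was not tested beyond these values.

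**Figure D4:**
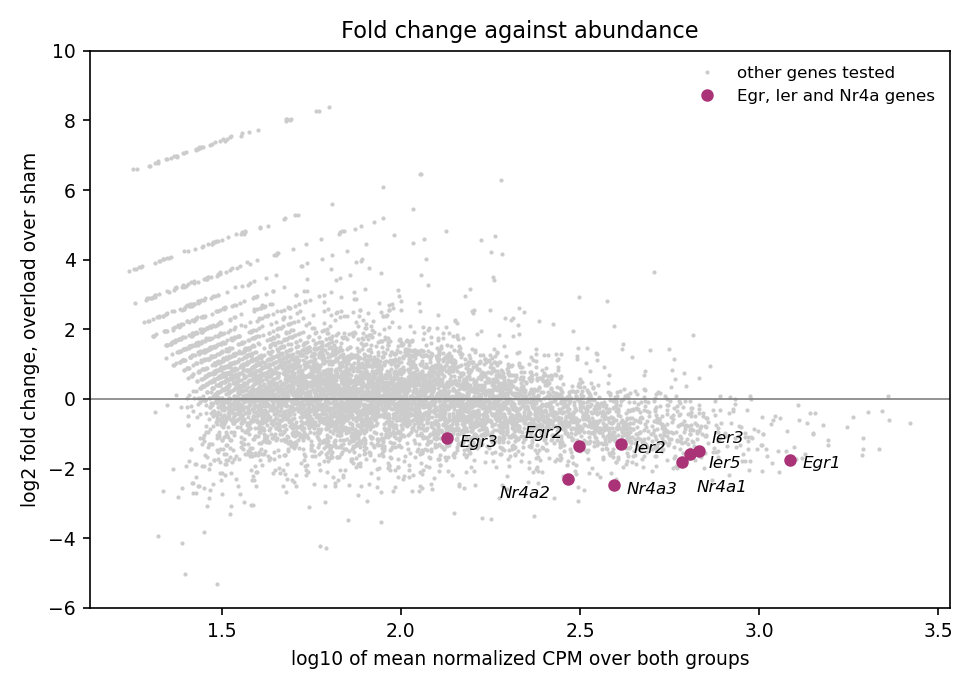
Log2 fold change, overload over sham, against the log10 of the mean normalized CPM, with 1 point per gene tested and the 9 genes named. Abundant genes lie lower as a whole, and Nr4a2 and Nr4a3 lie near the lower edge at their abundance.

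The relation to other genes of the same response was examined with a list of 36 other immediate early genes, of which 34 were tested. After overload, 29 of them fell and 2 rose, with a median log2 fold change of -1.45, where 26.3% of all genes tested fell and 25.8% rose. Of the 34 genes, 26 were in the decile with the highest counts, in which 70.8% of genes fell. In UMIs per tube without scaling, 18 fell and 9 rose (median -0.50), where 4.58% of all genes fell and 62% rose. With offsets that depend on abundance, 23 fell and 6 rose (median -0.67), where 21.5% of all genes fell and 21.3% rose. Junb, an AP-1 subunit and the most abundant of the list, gave 445 and 460 UMIs in the sham libraries and 261 and 277 in the overload libraries, a log2 fold change of -1.70 ± 0.16 (SE). Jun, another AP-1 subunit, gave 277 and 265 against 304 and 430 UMIs, a log2 fold change of -0.53 ± 0.15 (SE). Jun was thus higher in UMIs per tube after overload and lower as a share of all UMIs, whereas Junb was lower on both scales. Zfp36l1, which promotes decay of AU-rich mRNAs, gave 314 and 340 against 209 and 304 UMIs and fell by 1.32 on the log2 scale. The largest falls of the list were those of the small Maf protein gene Maff (-2.33), Fosb (-2.18) and Jund (-1.99), beside -2.30 for Nr4a2 and -2.48 for Nr4a3. The genes that rose were Klf10 (24, 23, 57 and 81 UMIs in sham replicates 1 and 2 and overload replicates 1 and 2, log2 fold change 0.59) and Dusp6, a dual-specificity phosphatase (32, 37, 85 and 104 UMIs, 0.49). Their adjusted p-values were 0.057 and 0.0656 in the quasi-likelihood test of edgeR after Benjamini-Hochberg adjustment, close to the threshold.

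The genes whose pattern over the 4 libraries was nearest to that of the most abundant member of each family were found by the Euclidean distance of mean-centred log2 CPM, among 4714 candidates. For Egr1 these were Cebpb (distance 0.0155), a leucine zipper transcription factor, Junb (0.0545) and Gadd45b (0.120), a stress-inducible gene. Cebpb gave 308 and 326 UMIs in the sham libraries and 174 and 185 in the overload libraries. Its likeness to Egr1 follows from the choice by smallest distance. For Ier3 the nearest were Id3 (0.0732), Zmym5 (0.0753) and Tra2a (0.0787), and for Nr4a1 they were Dnm3 (0.0684), Nfkb1 and Medag (0.108). The points are 4 libraries, common to all genes, and the distances are a description.

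Of 11 heat shock genes, listed as a second stress response, 9 fell and 0 rose, with a median log2 fold change of -1.14, beside 26.3% and 25.8% of all genes tested. Of the 11 genes, 10 were in the decile with the highest counts, in which 70.8% of genes fell. Dnajb1, a co-chaperone of Hsp70, gave 209 and 189 UMIs in the sham libraries and 110 and 127 in the overload libraries, a log2 fold change of -1.70 ± 0.16 (SE). Hspa8, the constitutive Hsp70, fell by 1.45. The inducible Hspa1a (-1.38) and Hspa1b (-1.11) also fell, but these near-identical copies can share reads, so their separate counts are uncertain. The mitochondrial chaperonin genes gave log2 fold changes of 0.05 (Hspe1) and -0.37 (Hspd1), with adjusted p-values of 0.821 and 0.193 in the quasi-likelihood test of edgeR after Benjamini-Hochberg adjustment. With offsets that depend on abundance, 5 of the 11 heat shock genes fell and 2 rose, where 21.5% of all genes fell and 21.3% rose, and the median was -0.25, beside -0.89 for the 9 immediate early genes and -0.67 for the list of 34.

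**Figure D5:**
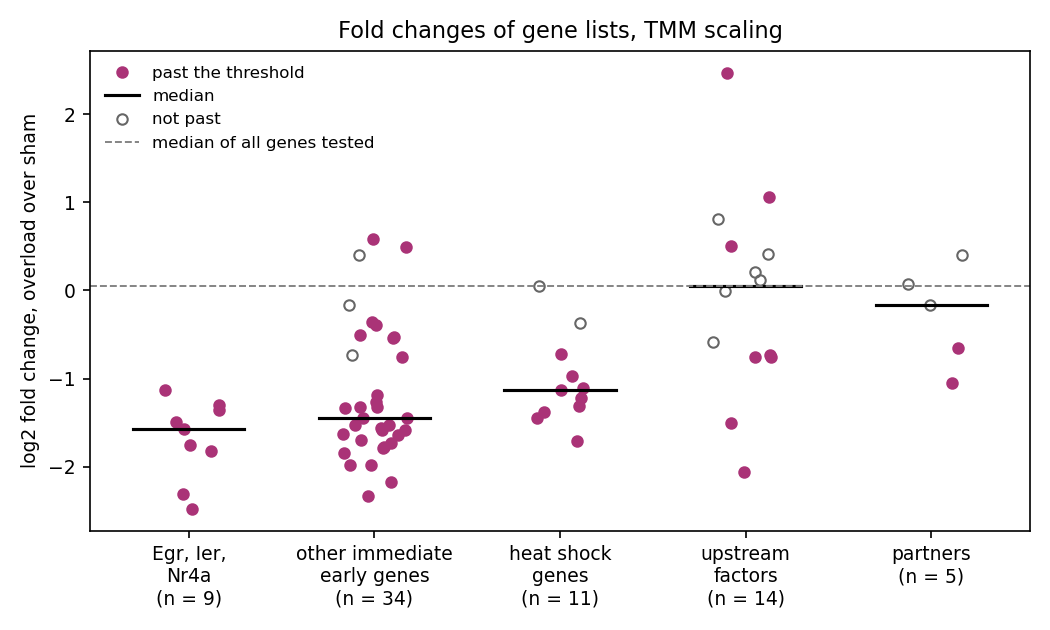
Log2 fold change, overload over sham, under TMM scaling for each tested gene of 5 lists, with filled points for genes past an adjusted p of 0.1, a line at each list's median and a dashed line at the median of all genes tested. All points of the Egr, Ier and Nr4a genes lie below the dashed line, and 3 of the other immediate early genes lie above it.

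Upstream of these genes act serum response factor (Srf) with its cofactors, the CREB family with its coactivators and the MEF2 factors, among others. Of 16 such genes, 14 were tested, 5 fell and 3 rose, near the 26.3% and 25.8% of all genes tested, and the median log2 fold change of 0.06 was near that of all genes. Srf gave 20, 19, 32 and 44 UMIs in sham replicates 1 and 2 and overload replicates 1 and 2, and its log2 fold change of 0.00 had a 95% interval of -0.62 to 0.62. Crem, which includes the inducible repressor ICER, gave 57 and 59 UMIs in the sham libraries and 24 and 30 in the overload libraries, and fell by 2.06 (adjusted p = 3.16e-06 in the quasi-likelihood test of edgeR after Benjamini-Hochberg adjustment). The groups did not overlap for Crem on either scale. Creb1 (-0.76), its coactivators Crtc1 (-1.50) and Crtc3 (-0.76), and the Srf cofactor Elk4 (-0.73) also fell in CPM. The third coactivator, Crtc2 (-0.59), did not pass the test. In UMIs per tube, Creb1 gave 52 and 54 in the sham libraries and 56 and 66 in the overload libraries. Crtc1 gave 10 and 15 against 7 and 10, Crtc3 gave 67 and 50 against 55 and 80, and Elk4 gave 63 and 52 against 57 and 78. Without scaling, 1 of the upstream genes fell and 8 rose, where 4.58% of all genes fell and 62% rose. Mef2c, a muscle transcription factor, rose from 9 and 2 to 57 and 63 UMIs, with a log2 fold change of 2.47 ± 0.41 (SE). Mef2a (0.50) rose as well. Elk3 gave 8, 2, 18 and 23 UMIs and a log2 fold change of 1.06, close to the threshold with an adjusted p of 0.0926 in the quasi-likelihood test of edgeR after Benjamini-Hochberg adjustment.

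Of 6 partners and regulators of the proteins, 5 were tested, 2 fell and 0 rose, beside 26.3% and 25.8% of all genes tested, with a median log2 fold change of -0.17. So few genes do not set the list apart from the background. Nab1, a corepressor that binds Egr proteins, gave 34, 50, 39 and 40 UMIs in sham replicates 1 and 2 and overload replicates 1 and 2, and its log2 fold change of -1.05 passed the test. Nab2, the related corepressor and itself an Egr target, gave 16, 10, 30 and 37 UMIs, with a log2 fold change of 0.40 and a 95% interval of -0.33 to 1.13. Ppp2r2a, a regulatory subunit of protein phosphatase 2A, gave 66, 78, 72 and 107 UMIs and fell by 0.65 in CPM on the log2 scale. Rxra and Rxrb, retinoid X receptors that pair with Nr4a1 and Nr4a2, gave 0.07 and -0.17, and neither passed the test. In UMIs per tube without scaling, 0 of the partners fell and 2 rose, where 4.58% of all genes fell and 62% rose.

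The sort was checked against marker genes of the cells a muscle digest can hold. Pax7, which defines MuSCs, gave 118 and 107 UMIs in the sham libraries and 108 and 137 in the overload libraries, and the 10 MuSC markers summed to 1491, 1237, 1778 and 2024 UMIs in sham replicates 1 and 2 and overload replicates 1 and 2 (the order used for all marker lists), with Sdc4 or Myf5 the most abundant. In CPM the sum of the MuSC markers fell from 6047 ± 627 to 4361 ± 371 (SD, n = 2 each). Of the 10 markers, 6 fell in CPM, where 26.3% of all genes tested fell and 25.8% rose. In the decile with the highest counts, 70.8% fell. Sdc4, Myf5, Vcam1 and Itga7 (1426, 1267, 783 and 677 UMIs in all) gave more UMIs than Ier2 (471), which was in that decile. The 6 that fell were Calcr (-2.60), Chrdl2 (-2.53), Sdc4 (-0.91), Vcam1 (-0.90), Pax7 (-0.84) and Fgfr4 (-0.80). In UMIs per tube the groups overlapped for Sdc4, Vcam1, Pax7 and Fgfr4. Calcr and Chrdl2 were lower without overlap, as were 7.9% of all genes tested. Itga7 (0.67) and Cdh15 (0.47) rose, and Myf5 (0.10) and Myod1 (0.29) did not pass the test. The part of these changes in the fall of the 9 genes was not tested. The 12 leukocyte markers summed to 0 and 2 UMIs in the sham libraries and 66 and 166 in the overload libraries, with Lyz2 the most abundant, and all 12 were at 0 in sham replicate 1. The 8 endothelial markers summed to 11, 4, 45 and 44 UMIs, with Pecam1 or Cdh5 the most abundant. The sums of both lists were thus at or near 0 in the sham libraries and higher in the overload libraries. Of these markers only Lyz2 and Cd74 had enough counts to be tested. Of the 8 fibroblast markers, which summed to 940, 867, 1221 and 1359 UMIs, Col3a1 was the most abundant and the defining Pdgfra gave 0, 0, 2 and 0, whereas Ly6a, which also marks endothelial cells, gave 1, 0, 22 and 41. In CPM Dpt (-1.43), Col3a1 (-0.53) and Dcn (-0.38) fell, Ly6a rose, and Col1a1 (-0.01) did not pass the test. The 6 mural markers summed to 177, 153, 458 and 674 UMIs, with Acta2 the most abundant and the defining Myh11 at 0, 0, 0 and 3, whereas the pericyte genes Rgs5 and Cspg4 gave 13, 4, 38 and 86 and 4, 2, 11 and 28. In CPM Acta2 (0.95) and Rgs5 (1.88) rose and Tagln (-0.61) fell, with 41, 36, 49 and 49 UMIs. The 8 myofibre markers summed to 297, 170, 1075 and 1197 UMIs, with Acta1 the most abundant. Of the myosin genes among them, Myh1 and Myh2 each gave 0, 0, 0 and 2 UMIs and Myh7 gave 0, 1, 1 and 0. Myh4 gave 10, 5, 145 and 79. The summed mural and myofibre markers, and Ly6a, were higher in the overload libraries, and their part in the fall of the 9 genes as a share of all UMIs was not tested.

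In the annotation of GRCm38 none of the 9 genes overlapped another gene. Egr1 (ENSMUSG00000038418) lies on chromosome 18 from 34859823 to 34864984, Egr2 (ENSMUSG00000037868) on chromosome 10 from 67535475 to 67542188, and Egr3 (ENSMUSG00000033730) on chromosome 14 from 70077203 to 70082614. Each has 2 exons in its longest transcript. Ier2 (ENSMUSG00000053560, chromosome 8 from 84661331 to 84662852) and Ier5 (ENSMUSG00000056708, chromosome 1 from 155096361 to 155099636) have 1 exon, and Ier3 (ENSMUSG00000003541, chromosome 17 from 35821684 to 35822923) has 2. Nr4a1 (ENSMUSG00000023034, chromosome 15 from 101254269 to 101274795), Nr4a2 (ENSMUSG00000026826, chromosome 2 from 57106830 to 57124003) and Nr4a3 (ENSMUSG00000028341, chromosome 4 from 48045153 to 48086447) have 8. Ier2, Ier5 and Nr4a2 are on the minus strand and the others on the plus strand.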

How the data were processed

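CEL-Seq2 libraries were prepared from 100 sorted MuSCs each, 2 per group. Per the labels and the study's methods, the authors extracted barcodes and UMIs with UMI-tools (1.0.0), aligned reads to GRCm38 with HISAT2 (2.1.0), assigned them to genes with featureCounts (1.6.4) and merged UMIs within a gene with the directional option of UMI-tools. They deposited counts of UMIs per gene, without normalization. The annotation release and strand setting are not given in the sources used here. All 19353 gene identifiers matched GENCODE M21, 19331 with the same name.

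From these counts, genes were kept by filterByExpr (minimum count 10, minimum total 15), library totals were reset, and 7228 genes were fitted with edgeR (4.0.16, R 4.3.3) by glmQLFit and glmQLFTest on the group alone, with TMM factors of 0.909 and 0.908 (sham) and 1.08 and 1.12 (overload) and a prior count of 0.125. P-values were adjusted by Benjamini-Hochberg over all genes tested, with a threshold of 0.1 as in the study's methods. The common biological coefficient of variation was 9.50%. A count of 3 corresponded to 13.1 and 13.6 CPM in the sham and 7.80 and 6.08 CPM in the overload libraries. Replicates of a group differed by more than sampling noise (chi-square per degree of freedom 1.19 for sham and 1.32 for overload, beside 3.99 to 4.97 between groups), and each counted as 1 sample.

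All 9 genes and their relatives are named, and any tested gene of the upstream, partner and heat shock lists could be. Some items are not reported here. From the other immediate early genes the rule named the 3 with the most UMIs and the 3 largest rises and falls past the threshold (2 rose). Nearest patterns were sought among genes with a mean of at least 20 UMIs, with a prior count of 2. The genes and lists were chosen with earlier results of these data known. The closing section gives the alternatives, which included DESeq2 (1.42.0) and limma-voom (limma 3.58.1). The fits were tested on simulated data. Motif searches and plots used Python 3.11.15 and matplotlib 3.10.9.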

Additional observations from a re-analysis of the deposited data

How the results depend on the processing

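All 9 genes stayed lower and past the threshold with upper-quartile factors, DESeq2 size factors, abundance-dependent offsets, library sizes alone, DESeq2, limma-voom or a robust fit. They did so too with no filter, a filter of 10 counts in every library of 1 group, or an adjusted p of 0.05. The same held for a replicate block, thinning to the smallest library and a correction for repeated UMIs. With each library left out, 1 group held 1 library, so only fold changes are given, and all 9 stayed below 0. In UMIs per tube without scaling, all 9 were still below 0, but Egr2 (-0.40), Egr3 (-0.16) and Ier2 (-0.34) did not pass. Leaving out each library gave -1.87 to -1.58 for Egr1, -1.39 to -0.89 for Egr3 and -2.75 to -2.24 for Nr4a3. Of all genes, 1868 rose and 1898 fell, against 4481 and 331 in UMIs per tube, 2694 and 1351 with library sizes alone (median of all genes 0.33), and 967 and 1215 with DESeq2. Counts in the lists moved as follows. Of the upstream genes (3 higher, 5 lower), 5 were higher with library sizes alone, 8 higher and 1 lower per tube, and 1 higher with DESeq2. Of the partners (2 lower), 1 was lower with library sizes alone, offsets or DESeq2, and 2 were higher and 0 lower per tube. Of the other immediate early genes (2 higher, 29 lower), 9 were higher and 18 lower per tube, 6 higher with offsets, 1 with the filter of 10 counts, and 0 with DESeq2, an adjusted p of 0.05 or thinning. Of the heat shock genes (0 higher, 9 lower), 1 was higher with library sizes alone, 1 higher and 4 lower per tube, and 2 higher and 5 lower with offsets. Counts with a library left out are not given, since 1 group then held 1 library. The cause of the moves in these counts was not tested. Deviations of libraries with the same replicate number were hardly correlated between the groups (-0.034 over 7228 genes). Replicates differed little beyond sampling noise, so this value cannot show whether a sham and an overload library share a mouse. Sham muscle was contralateral in some of the paper's experiments, and the sources do not state this for these libraries. The replicate block left 9 of the 9 genes lower (1806 of all genes higher and 1864 lower). With 2 libraries per group, the spread rests on the assumption that genes of like abundance vary alike, and a list count of 1 or 2 can change by 1 gene.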
